A study of Mus musculus with 6 samples.

Results

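The enzymes that break down amino acids were examined in the livers of mice overdosed with acetaminophen (APAP) and of control mice given saline. The 43 genes are rows of the deposited gene table, chosen by their gene name, out of 34745 genes in all, and were picked for their pathway. The branched-chain pathway holds 16 of them, tyrosine degradation 5, tryptophan degradation 6, histidine degradation 4, serine and threonine degradation 3, the glycine cleavage system 3, lysine degradation 3 and proline degradation 3. Bulk RNA-Seq had been performed on liver RNA of C57BL/6J mice labelled as WT, aged 8 to 10 weeks according to the methods. Food was withheld for 12 hours, and APAP was then given once, by i.p. injection, at 300 mg/kg, with sampling 12 hours later in the APAP group. The samples comprise 3 livers per group. Read counts of 2 APAP libraries (replicates 1 and 3) and 3 saline libraries (WT1, WT2 and WT3) were analysed. The second APAP replicate was not analysed here. The names WT1 to WT3 give the genotype, which both groups carry, and were taken as saline by elimination, since the rest of the count columns carry the drug in their names. The methods speak of biological repeats for all experiments, and the labels do not tie each library to a separate mouse. The p-values measure the spread between these libraries, which may be partly technical if any share an animal.

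Catabolic enzymes of the liver remove the nitrogen of amino acids and pass the carbon skeletons to the citric acid cycle, to glucose synthesis or to ketone bodies. Most of these routes run in the mitochondria or cytosol of hepatocytes, and several of them, such as the degradation of tyrosine, tryptophan and histidine, are carried mainly by the liver. Inherited loss of single enzymes of these routes causes metabolic diseases, including maple syrup urine disease (branched-chain keto acid dehydrogenase), propionic acidaemia (propionyl-CoA carboxylase), tyrosinaemia (fumarylacetoacetase) and nonketotic hyperglycinaemia (the glycine cleavage system). APAP overdose injures hepatocytes around the central vein, where the cytochrome P450 enzymes that activate the drug are most abundant.

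Raw counts per library summed to between 13378445 and 15976339. The 43 members took 1.17%, 1.54% and 1.53% of the counts in saline libraries WT1, WT2 and WT3 and 0.886% and 0.762% in APAP replicates 1 and 3. Levels are given below as CPM, the reads of a gene scaled to a common library size after TMM normalization in edgeR, always in the order WT1, WT2, WT3 for saline and replicate 1, replicate 3 for APAP. Xist, the RNA that silences an X chromosome in female cells, was at 289.6, 914 and 882 CPM in the saline libraries and at 0.764 and 1.73 CPM in the APAP libraries. Ddx3y, carried by the Y chromosome, showed 0, 0 and 0.0668 CPM with saline and 79.0 and 61.7 CPM with APAP. The methods name male mice, so 3 libraries did not match the stated sex, and the sex-linked difference coincides with the treatment in every library. For every comparison below, a difference by treatment and a difference by sex cannot be told apart.

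As a group, the mRNA levels of the amino acid catabolism enzymes were lower in the APAP livers. Summed over the 43 members, the level was 14985, 15719 and 16382 CPM with saline and 6962 and 6995 CPM with APAP. The APAP mean of this sum was 44.5% of the saline mean, beside 75.9% for the sum over all genes tested in the same units. Of the 42 members that could be tested, 22 fell at an adjusted p under 0.05 (quasi-likelihood test of edgeR, Benjamini-Hochberg adjustment) and 0 rose (also 0 by the likelihood ratio test and by DESeq2, with 1 member higher at an unadjusted P under 0.05), where 3.53% of the 13734 genes tested fell and 3.70% rose. At the threshold used in the study, a fold change of at least 1.5 with an unadjusted P under 0.05, 36 members were lower and 1, Sdsl, was higher, against 11.2% and 12.3% of all genes tested (23.5% in either direction). In 36 members every APAP library lay below every saline library (20.1% of all genes tested), in 1 member every APAP library lay above (24.0%, and 44.1% in either direction), and in 5 members (Tdo2, Kmo, Hal, Ftcd and Gcsh) the groups overlapped. Fewer hepatocytes and less enzyme mRNA per hepatocyte cannot be told apart in bulk liver RNA.

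The median log2 fold change (APAP over saline) of the 42 members was -1.20, beside 0.03 over all genes tested, and single members ranged from -3.38 (Afmid) to 1.07 (Sdsl). The fitted value was negative in 40 of 42 members, and in 39 of 42 when the libraries were scaled by total count only or to 8 hepatocyte marker genes, the exception being Tdo2, which turned positive. Both of these scalings moved the median of all genes, by 0.39 and 0.42 on the log2 scale. The members' median minus that of all genes was -1.23 with TMM, -1.22 with total counts and -1.25 with the hepatocyte genes. A change of scaling moves all genes by nearly the same amount, so these 3 values could hardly differ. They are no test of the scaling. Over all genes, 51.2% of the called genes were higher with TMM, 77.8% with total counts and 75.6% with the hepatocyte genes.

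The number of members that passed the adjusted p depended on single libraries. It was 4 without APAP replicate 1, 6 without APAP replicate 3, 12 without saline WT1, 5 without saline WT2, and 25 lower with 1 higher without saline WT3. The share of all genes called in either direction also moved, from 7.23% to 1.66%, 2.78%, 3.72%, 1.23% and 6.84% in the same order. Hgd, Afmid, Acmsd and Prodh passed in every one of these 5 fits. Between 39 and 41 of the 42 fitted values were negative in each of them.

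**Figure D1:**
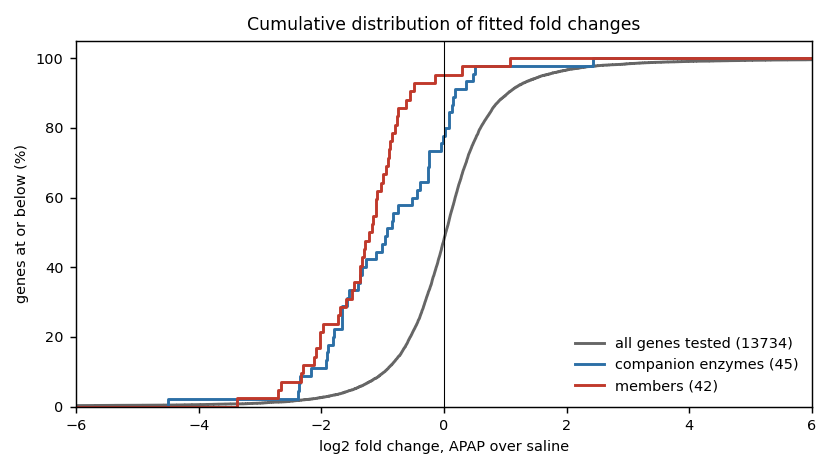
Cumulative share of genes (y axis, %) at or below a given log2 fold change of APAP over saline (x axis), for the 42 members tested, the 45 companion enzymes of the same pathways and all 13734 genes tested, each as a stepped line. The members' line lies to the left of that of all genes over most of its range, with medians of -1.20 and 0.03, and 2 of the 42 members lie to the right of 0.

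Markers of liver cell types moved with the treatment as well, and their part in the members' values was not tested. Over all genes tested, 3.53% fell and 3.70% rose at the adjusted p. Of 9 pericentral hepatocyte markers, 8 fell, with a median log2 fold change of -3.43 and a summed level between 8448 and 14016 CPM with saline and of 1057 and 2068 CPM with APAP. Cyp2e1, the most abundant of them and a main enzyme of APAP activation, was at 8353, 5265 and 4363 CPM with saline and 783 and 1593 CPM with APAP. The number of pericentral markers that fell became 4 without APAP replicate 1 and 2 without saline WT2, and lay between 6 and 7 in the other leave-outs. Of 9 periportal hepatocyte markers, 3 fell, with a median of -1.17. That count became 0 without APAP replicate 1, 1 without APAP replicate 3 and 1 without saline WT2, and was 2 without saline WT1 or WT3. Of 8 hepatocyte markers in general, 0 passed the adjusted p by edgeR's quasi-likelihood test, 2 had an unadjusted P under 0.05, 1 was lower by the likelihood ratio test and 2 by DESeq2. Their median was -0.51, and their sum lay between 130877 and 183536 CPM with saline and at 85046 and 129927 CPM with APAP. Albumin (Alb), the most abundant marker in both of these lists, was at 129117, 95101 and 120393 CPM with saline and 51544 and 89798 CPM with APAP. Both lists were split. Of the 8 hepatocyte markers 6 had a negative log2 fold change and 2 a positive one, Apoa1 (0.57) and Fga (0.76). Scaled to these 8 genes themselves, Apoa1 and Fga were called higher and 1 gene lower. Of the 9 periportal markers 7 were negative and 2 positive, Arg1 (0.13) and Cdh1 (1.48), neither of which passed the adjusted p.

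Neutrophil markers were at low levels in the saline livers and higher in the APAP livers. Of the 9 neutrophil markers tested, 8 rose, beside 3.70% of all genes tested. The sum of the list went from between 4.84 and 8.89 CPM to 129 and 81.2 CPM. S100a9, the most abundant of them over all libraries, was at 1.61, 1.13 and 2.0 CPM with saline and 41.5 and 30.3 CPM with APAP, while Ly6g and Camp had no count in any saline library. The number that rose was 3 without APAP replicate 1, 5 without APAP replicate 3, 5 without saline WT1, 2 without saline WT2 and 6 without saline WT3, with S100a9 and Retnlg in each. Of 8 monocyte and macrophage markers 3 rose (1, Chil3, without either APAP replicate, WT1 or WT2, and 2 without WT3), and Lyz2, the most abundant, was at 98.5, 72.3 and 64.8 CPM with saline and 50.2 and 103 CPM with APAP. By edgeR's quasi-likelihood test, 0 of 8 Kupffer cell, 0 of 8 sinusoidal endothelial and 0 of 4 tested lymphocyte markers passed the adjusted p, and 1, 1 and 0 had an unadjusted P under 0.05. Marco, a Kupffer cell marker, was higher by the likelihood ratio test and DESeq2, and neither tool called a gene of the other two lists. The most abundant genes of these lists by the mean of all libraries, Cd5l, Stab1 and Cd79a, had log2 fold changes of 0.21, 0.42 and 0.35. By the saline mean they were Clec4f, Clec4g and Cd79b, with the opposite sign at -0.30, -0.82 and -0.94. Among 8 stellate cell markers 1 rose (Col1a1, whose call was lost with any library left out), and Dcn, the most abundant, had a log2 fold change of -0.19.

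Branched-chain amino acids are first transaminated and then decarboxylated by a mitochondrial complex, after which leucine, isoleucine and valine follow separate branches. All 16 branched-chain members had lower levels in both APAP libraries than in any saline library, where 20.1% of all genes tested did so. Of the 16, 9 fell at the adjusted p, beside 3.53% of all genes tested. The summed level of the 16 was 2292, 2119 and 1762 CPM with saline and 639 and 855 CPM with APAP. The APAP mean was 36.3% of the saline mean, beside 75.9% for the sum over all genes tested. The median log2 fold change was -1.19, with a range from -2.13 (Hibadh) to -0.62 (Hibch). Fold changes of single genes are given below with their standard error.

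Bcat2 encodes the mitochondrial aminotransferase that starts the pathway. Its level was 14.0, 23.8 and 17.6 CPM with saline and 11.4 and 9.83 CPM with APAP (log2 fold change -0.80 ± 0.28, adjusted p = 0.141), which did not pass the adjusted p. Bckdha and Bckdhb encode the subunits of the decarboxylase of the branched-chain keto acid dehydrogenase complex, the committed step of the route. Bckdhb was at 65.4, 66.6 and 69.2 CPM with saline and 36.7 and 30.3 CPM with APAP and fell (log2 fold change -1.0 ± 0.20, adjusted p = 0.0341). The groups were separated by a gap wider than the range within either of them. Bckdha was at 245, 182 and 184 CPM with saline and 62.0 and 105 CPM with APAP (log2 fold change -1.28 ± 0.31, adjusted p = 0.0566), just outside the threshold. Here 61.7% of the annotated exon bases are shared with B3gnt8 on the opposite strand, and reads of the pair may not have been told apart. Dbt, which encodes the acyltransferase core of the same complex, was at 103, 108 and 76.4 CPM with saline and 42.4 and 46.5 CPM with APAP and fell (log2 fold change -1.10 ± 0.24, adjusted p = 0.0413).

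In the leucine branch, Ivd, the isovaleryl-CoA dehydrogenase, was at 137, 215 and 149 CPM with saline and 41.3 and 59.5 CPM with APAP. It fell 3.32-fold (log2 fold change -1.73 ± 0.31, adjusted p = 0.0251). Mccc1 and Mccc2 encode the subunits of methylcrotonyl-CoA carboxylase, a biotin enzyme. Mccc1 was at 45.8, 49.9 and 36.9 CPM with saline and 17.3 and 18.3 CPM with APAP and fell (log2 fold change -1.31 ± 0.22, adjusted p = 0.0211), while Mccc2 was at 52.4, 52.6 and 33.8 CPM with saline and 24.3 and 23.9 CPM with APAP (log2 fold change -0.94 ± 0.26, adjusted p = 0.0772). Both subunits lay lower in each APAP library, and the call differed without a test of the difference between them. Auh, the methylglutaconyl-CoA hydratase, was at 33.5, 29.0 and 23.2 CPM with saline and 15 and 15.8 CPM with APAP (log2 fold change -0.89 ± 0.23, adjusted p = 0.0670).

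In the isoleucine and valine branch, the dehydrogenase Acadsb, which acts on the isoleucine intermediate, was at 163, 79.3 and 68.4 CPM with saline and 20.9 and 28.1 CPM with APAP. It fell (log2 fold change -2.08 ± 0.43, adjusted p = 0.0384), and the saline libraries were themselves spread, WT1 being the highest. Acad8, the isobutyryl-CoA dehydrogenase of valine, was at 47.6, 47.2 and 49.4 CPM with saline and 26.5 and 30.8 CPM with APAP (log2 fold change -0.75 ± 0.19, adjusted p = 0.0644). Hibch, which releases hydroxyisobutyrate from its CoA ester, was at 77.2, 69.4 and 61.0 CPM with saline and 45.2 and 44.8 CPM with APAP (log2 fold change -0.62 ± 0.20, adjusted p = 0.118) and had the smallest difference of the 16 genes. Hibadh, the hydroxyisobutyrate dehydrogenase of the next step, was at 450.4, 385 and 244 CPM with saline and 64.8 and 99.9 CPM with APAP and had the largest, falling 4.36-fold (log2 fold change -2.13 ± 0.37, adjusted p = 0.0233). Aldh6a1, the mitochondrial methylmalonate semialdehyde dehydrogenase at the end of the valine route, was at 582, 557 and 520.3 CPM with saline and 143 and 221 CPM with APAP. It fell 3.04-fold (log2 fold change -1.60 ± 0.29, adjusted p = 0.0257), with 18.6% of its exon bases shared with Bbof1 on the other strand.

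Isoleucine and valine end in propionyl-CoA, which is carboxylated and rearranged to enter the citric acid cycle. Pcca, the biotin-bearing subunit of propionyl-CoA carboxylase, was at 48.7, 56.1 and 45.4 CPM with saline and 19.9 and 35.6 CPM with APAP (log2 fold change -0.85 ± 0.29, adjusted p = 0.128). Pccb, its partner subunit, was at 188, 164 and 146 CPM with saline and 57.0 and 73.6 CPM with APAP and fell (log2 fold change -1.35 ± 0.24, adjusted p = 0.0262). Mcee, the methylmalonyl-CoA epimerase, was at 39.8, 35.1 and 36.5 CPM with saline and 10.9 and 12.1 CPM with APAP. This gene fell 3.23-fold (log2 fold change -1.69 ± 0.20, adjusted p = 0.00702), and its call was lost only without APAP replicate 1.

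**Figure D2:**
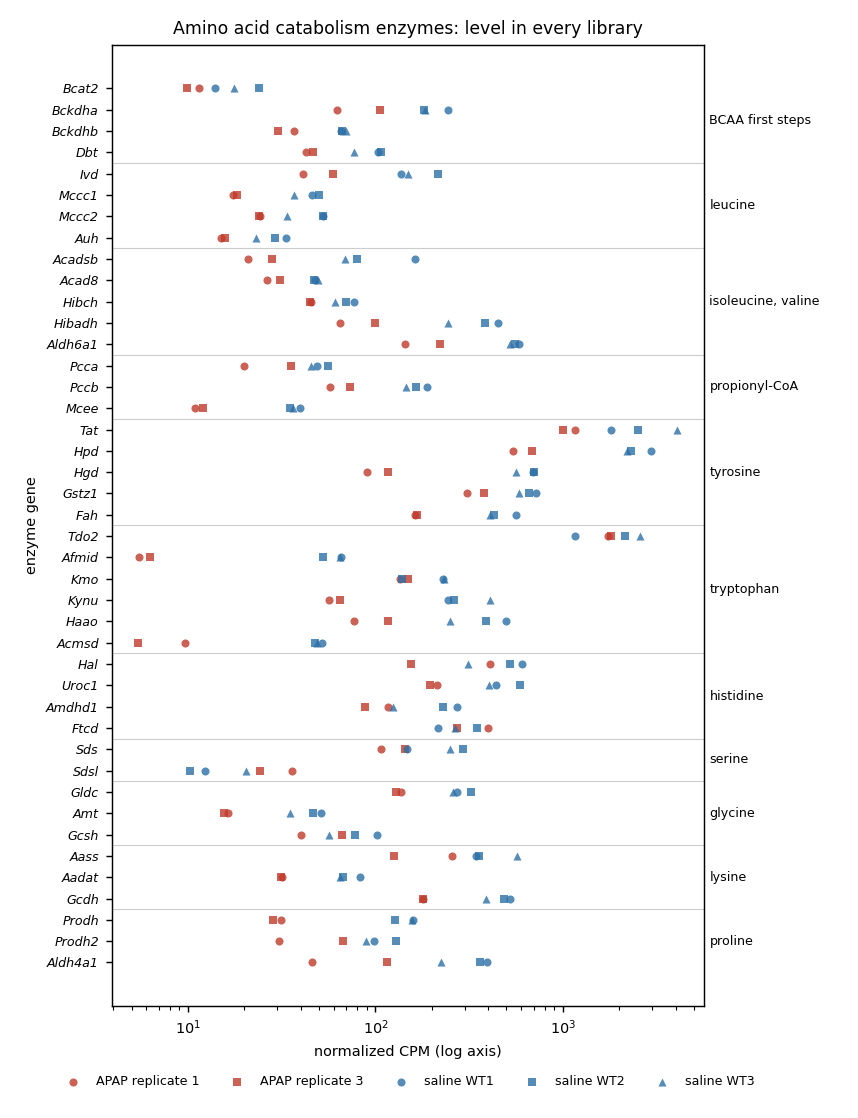
Level of each of the 42 members tested in every library, in normalized CPM on a log axis (x), with the genes (y) grouped by pathway. Each point is 1 library, blue for saline WT1, WT2 and WT3 and red for APAP replicates 1 and 3. The red points lie to the left of all blue points in 36 genes, and to their right in Sdsl.

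Tyrosine is degraded in 5 steps, of which the last releases fumarate and acetoacetate. All 5 genes had no overlap between groups and were lower with APAP, as were 20.1% of all genes tested. At the adjusted p 3 of them fell, beside 3.53% of all genes tested. The summed level of the 5 was 6736, 6597 and 7804 CPM with saline and 2260 and 2346 CPM with APAP. The APAP mean was 32.7% of the saline mean, beside 75.9% for the sum over all genes tested. Tat, the aminotransferase that starts the route, was at 1815, 2509.5 and 4043 CPM with saline and 1157 and 1000.0 CPM with APAP (log2 fold change -1.37 ± 0.42, adjusted p = 0.101). The saline libraries differed among themselves at this gene, WT3 being 2.23-fold above WT1. Hpd, the hydroxyphenylpyruvate dioxygenase, was at 2952, 2300.1 and 2206 CPM with saline and 540.4 and 682 CPM with APAP and fell 4.07-fold (log2 fold change -2.02 ± 0.33, adjusted p = 0.0185).

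Hgd encodes homogentisate dioxygenase, the enzyme missing in alkaptonuria (ENSMUSG00000022821, chromosome 16, 37580153 to 37632020 on GRCm38, plus strand). Its level was 692, 701 and 563 CPM with saline and 90.2 and 117 CPM with APAP, a 6.29-fold fall (log2 fold change -2.65 ± 0.29, adjusted p = 0.00540, 95% interval -3.33 to -1.97). It was called in all 13 alternative settings. Gstz1, the maleylacetoacetate isomerase, was at 715, 658 and 584 CPM with saline and 309.6 and 379 CPM with APAP (log2 fold change -0.92 ± 0.26, adjusted p = 0.0817). Fah, the fumarylacetoacetase that closes the route, was at 561, 428 and 408 CPM with saline and 162 and 167 CPM with APAP and fell 2.83-fold (log2 fold change -1.50 ± 0.26, adjusted p = 0.0241).

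Tryptophan enters the kynurenine pathway, which leads to NAD synthesis or to complete oxidation. Of its 6 genes 4 fell, beside 3.53% of all genes tested, and in the other 2 the groups overlapped. Tdo2, the tryptophan dioxygenase that opens the pathway, was at 1155, 2152 and 2593 CPM with saline and 1735 and 1814 CPM with APAP, within the range of the saline libraries (log2 fold change -0.15 ± 0.40, 95% interval -1.09 to 0.79, adjusted p = 0.857). Its fitted value was positive in 3 of the 13 alternative settings, at 0.21 with total counts only, 0.23 with hepatocyte scaling and 0.10 without saline WT3. Kmo, the kynurenine monooxygenase, was at 229, 138 and 232 CPM with saline and 134 and 150.0 CPM with APAP, which also overlapped (log2 fold change -0.49 ± 0.29, adjusted p = 0.358).

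Among the genes that fell, Afmid, the formamidase that acts just after Tdo2 (ENSMUSG00000017718, chromosome 11, 117825924 to 117839908, plus strand), was at 65.4, 52.6 and 64.4 CPM with saline and 5.46 and 6.24 CPM with APAP. At 10.4-fold, this was the largest fall among the 42 members tested (log2 fold change -3.38 ± 0.24, adjusted p = 0.00181). A share of 46.6% of its exon bases overlaps Gm20708 and Tk1, so its count is uncertain where reads could not be assigned to a single gene. Kynu, the kynureninase, was at 243, 263 and 406 CPM with saline and 56.3 and 64.3 CPM with APAP and fell 5.04-fold (log2 fold change -2.33 ± 0.32, adjusted p = 0.0118). Haao, the hydroxyanthranilate dioxygenase, was at 499.7, 391 and 249.7 CPM with saline and 77.2 and 116 CPM with APAP and fell 3.93-fold (log2 fold change -1.97 ± 0.38, adjusted p = 0.0320). Acmsd, the decarboxylase that diverts the pathway from NAD synthesis to oxidation (ENSMUSG00000026348, chromosome 1, 127729413 to 127767978, plus strand), was at 51.8, 47.3 and 48.6 CPM with saline and 9.64 and 5.44 CPM with APAP. It fell 6.52-fold (log2 fold change -2.71 ± 0.30, adjusted p = 0.00568).

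**Figure D3:**
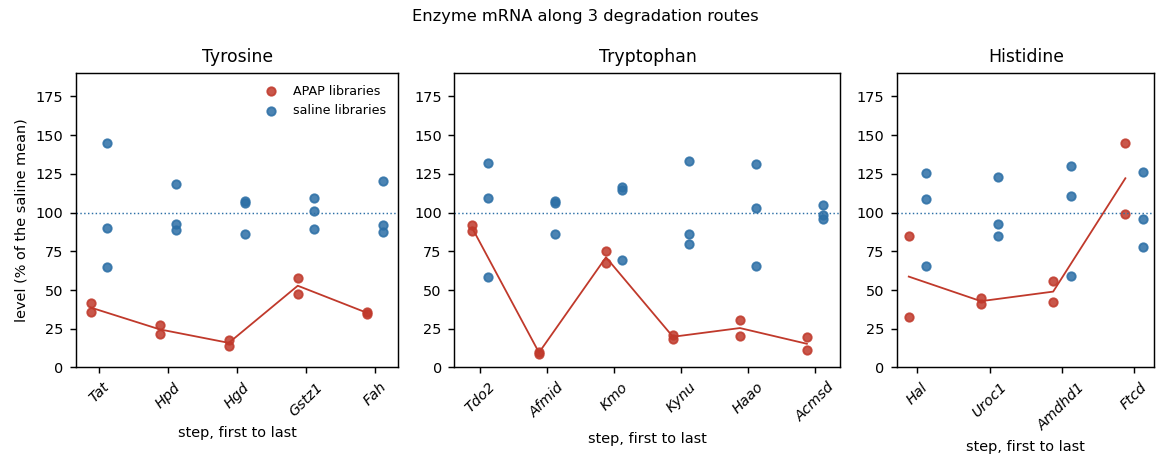
Level of each enzyme of tyrosine, tryptophan and histidine degradation as a percent of its saline mean (y axis), in the order of the steps (x axis). Points are single libraries (red APAP, blue saline), the red line joins the APAP means and the dotted line marks 100%. Tdo2, the first tryptophan step, stands within the saline range, Kmo stands near its lower end between steps that fell, and Ftcd is the histidine enzyme with an APAP mean above 100%.

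The promoters of Hgd and Fah are shown as examples of the regulatory DNA of genes that fell. Both are called members whose upstream region overlaps no annotated exon. Acmsd, which lay between them by p, met the same rule, held none of the motifs counted below and is not printed. Another 8 called members with a smaller p than Fah were passed over for an exon overlap or a missing RefSeq entry. Each printed sequence is the 250 bases before the annotated start in RefSeq (build GRCm38.p6), 5′ to 3′ on the coding strand. The regions are chr16:37579903-37580152 (plus strand) for Hgd and chr7:84605943-84606192 (minus strand) for Fah, the latter of which lies inside the span of the gene as annotated in the count table but in no exon. Capitals mark GGGTGG, the reverse complement of CCACCC.
Hgd: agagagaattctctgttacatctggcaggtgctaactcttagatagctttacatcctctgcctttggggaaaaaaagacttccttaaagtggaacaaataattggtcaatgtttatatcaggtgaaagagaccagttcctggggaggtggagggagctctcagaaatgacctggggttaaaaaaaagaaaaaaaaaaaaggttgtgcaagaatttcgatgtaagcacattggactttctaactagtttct
Fah: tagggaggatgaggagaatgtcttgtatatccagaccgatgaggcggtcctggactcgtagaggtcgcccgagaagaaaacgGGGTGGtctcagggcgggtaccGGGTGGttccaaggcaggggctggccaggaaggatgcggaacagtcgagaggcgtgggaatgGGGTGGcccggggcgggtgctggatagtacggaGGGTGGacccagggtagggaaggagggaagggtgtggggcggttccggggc

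Short motifs were counted in these 250 bases for the 38 members with a RefSeq entry and for 27025 promoters in all. CCACCC, a core of sites for Krüppel-like factors, was found on either strand in 13 of 38 members (34.2%) and in 27.6% of all promoters. Fah held 4 copies, all on the reverse strand, and Hgd held none. TATAAA on the coding strand was found in Tdo2 and Ftcd (5.26% of members, 8.13% of all promoters). CAAAGTCCA, a sequence bound by HNF4, was found on either strand in Aadat only (2.63%, against 0.377% of all). TTGCNNCAA, a sequence bound by C/EBP factors, was found on either strand in Bckdha only (2.63%, against 1.77% of all). Tdo2 also held CCACCC, whose letters cannot overlap TATAAA.

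Histidine is deaminated and opened to glutamate, with a formimino group passed to folate. Hal, the ammonia-lyase that starts this route, was at 602, 521 and 312 CPM with saline and 406 and 155 CPM with APAP, and the APAP libraries were 2.62-fold apart (log2 fold change -0.77 ± 0.48, adjusted p = 0.375). Uroc1, the urocanate hydratase, was at 441, 587 and 404 CPM with saline and 213 and 196 CPM with APAP and fell (log2 fold change -1.22 ± 0.27, adjusted p = 0.0451). Amdhd1, the imidazolonepropionase, was at 271, 230.2 and 123 CPM with saline and 116 and 87.8 CPM with APAP (log2 fold change -1.03 ± 0.37, adjusted p = 0.149), where the saline library WT3 lay only a little above the higher APAP library. Ftcd, the formiminotransferase that ends the route, was at 215, 347 and 265 CPM with saline and 400.3 and 274 CPM with APAP (log2 fold change 0.29 ± 0.30, adjusted p = 0.607). It was the only member apart from Sdsl with a positive value, and the value turned to -0.0062 without APAP replicate 1.

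Serine dehydratase and its relative had fitted values of opposite sign, neither of which passed the adjusted p. Sds, which deaminates serine and threonine to keto acids for glucose synthesis, was at 148, 293 and 249 CPM with saline and 107 and 143 CPM with APAP (log2 fold change -0.88 ± 0.35, adjusted p = 0.175). Sdsl, the serine dehydratase-like gene that lies next to it on chromosome 5 on the opposite strand, was at 12.4, 10.2 and 20.3 CPM with saline and 35.9 and 24.2 CPM with APAP. Every APAP library was above every saline library at Sdsl, as in 24.0% of all genes tested. Its APAP mean was 210.0% of the saline mean (log2 fold change 1.07 ± 0.34, adjusted p = 0.110, unadjusted p = 0.0161). It did not pass the adjusted p with all libraries or under the likelihood ratio test and DESeq2. It did without saline WT3 (adjusted p = 0.0431). Of the exon bases of Sds, 29.6% overlap Plbd2 and Gm15690 on the opposite strand, while Sdsl shared none. Tdh, the mitochondrial threonine dehydrogenase, had 0 counts in each of the 5 libraries, and a count of 3 would correspond to between 0.176 and 0.269 CPM.

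The glycine cleavage system splits glycine into carbon dioxide, ammonia and a folate-bound carbon unit. Gldc, its decarboxylase, was at 274, 322 and 261 CPM with saline and 138 and 129 CPM with APAP and fell (log2 fold change -1.10 ± 0.23, adjusted p = 0.0401). Amt, the aminomethyltransferase, was at 51.3, 46.7 and 35.0 CPM with saline and 16.3 and 15.6 CPM with APAP and fell 2.77-fold (log2 fold change -1.47 ± 0.24, adjusted p = 0.0191). Gcsh, the lipoyl carrier protein of the system, was at 101, 77.6 and 56.7 CPM with saline and 40.2 and 66.6 CPM with APAP, so that the higher APAP library lay above the saline library WT3 (log2 fold change -0.56 ± 0.33, adjusted p = 0.356).

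Lysine is degraded by way of saccharopine and glutaryl-CoA. Aass, the bifunctional synthase that opens the saccharopine route, was at 343, 358 and 572 CPM with saline and 255 and 125 CPM with APAP (log2 fold change -1.16 ± 0.41, adjusted p = 0.137), the APAP libraries being 2.04-fold apart. Aadat, the aminoadipate aminotransferase, was at 83.1, 66.8 and 64.4 CPM with saline and 31.8 and 31.2 CPM with APAP and fell (log2 fold change -1.18 ± 0.21, adjusted p = 0.0261). Gcdh, the glutaryl-CoA dehydrogenase, was at 520.5, 483 and 390.2 CPM with saline and 178 and 179.7 CPM with APAP and fell 2.59-fold (log2 fold change -1.38 ± 0.25, adjusted p = 0.0279). The APAP replicates of these last genes were nearly equal.

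Proline is oxidized to glutamate in the mitochondria. Prodh, the proline dehydrogenase (ENSMUSG00000003526, chromosome 16, 18060357 to 18090203, minus strand), was at 159, 127 and 156 CPM with saline and 31.3 and 28.2 CPM with APAP. It fell 4.94-fold (log2 fold change -2.31 ± 0.24, adjusted p = 0.00482, 95% interval -2.86 to -1.75) and was called in all 13 alternative settings. Prodh2, which oxidizes hydroxyproline, was at 98.4, 129 and 89.3 CPM with saline and 30.4 and 67.4 CPM with APAP (log2 fold change -1.11 ± 0.38, adjusted p = 0.128). Aldh4a1, the dehydrogenase that both routes share, was at 394, 361 and 224 CPM with saline and 45.6 and 115 CPM with APAP, 4.06-fold lower in the fit (log2 fold change -2.02 ± 0.47, adjusted p = 0.0510), with the APAP libraries 2.53-fold apart. Of its exon bases 32.5% overlap Gm21969.

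**Figure D4:**
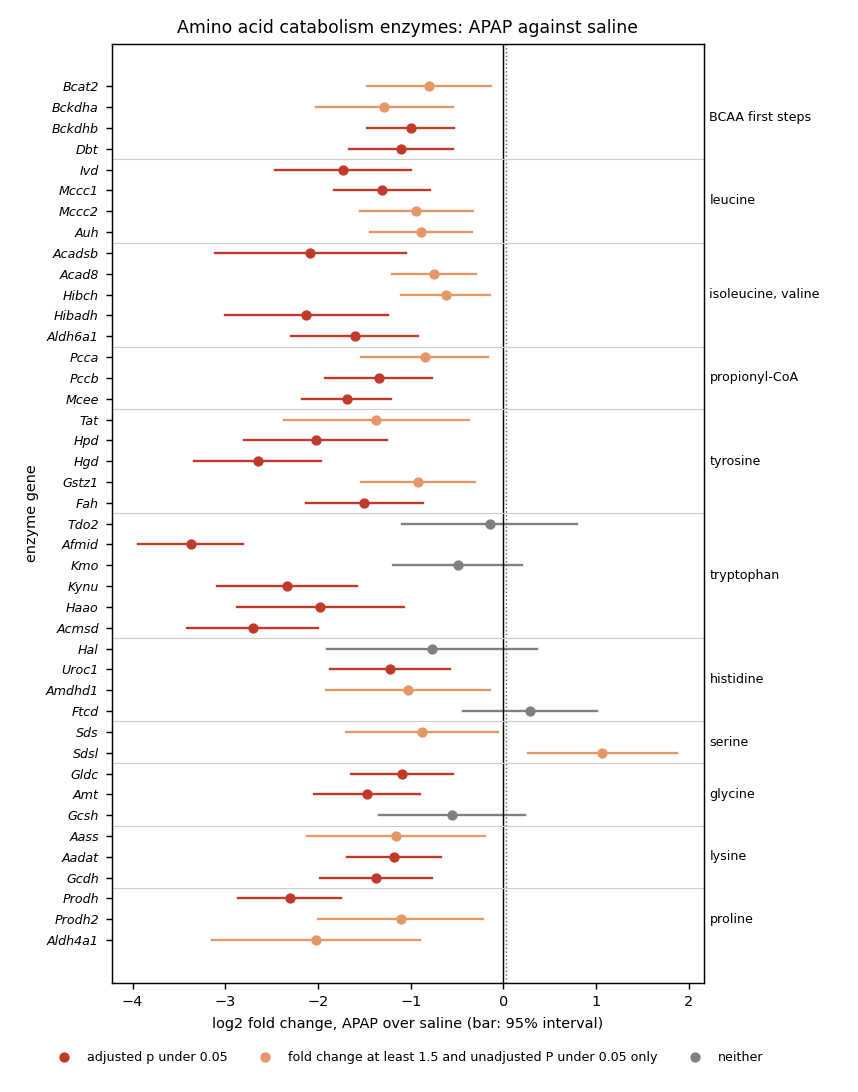
Fitted log2 fold change of APAP over saline (x axis) for each of the 42 members tested (y axis, grouped by pathway), with bars for the 95% interval and a dotted line at the median of all genes. Dark red marks the 22 genes with an adjusted p under 0.05, orange those that passed only the fold change and unadjusted P of the study (14 lower and Sdsl higher), and grey the 5 that passed neither.

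Per length of annotated exons, the members with the highest mean levels in the saline livers were Hpd at 1168 CPM per kb, Tat at 1160 CPM per kb, Tdo2 at 507 CPM per kb, Hgd at 249 CPM per kb and Fah at 210.1 CPM per kb. In the APAP livers the order of the highest was Tdo2 at 457 CPM per kb, Tat at 449 CPM per kb, Hpd at 287 CPM per kb, Ftcd at 106 CPM per kb and Fah at 74.3 CPM per kb. Tdo2 thus moved from rank 3 to rank 1, and Hgd from rank 4 to rank 14, among the 43 members. Hpd and Tat at the head of the saline order did not differ beyond their spread between libraries, and neither did Tdo2 and Tat at the head of the APAP order. The APAP mean was under 50% of the saline mean in 28 of 42 members and under 25% in 9.

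The spread within groups differed between members. The APAP libraries differed by a median of 1.22-fold and by over 1.5-fold in 11 of 42 members, with 26 of 42 higher in replicate 3. Among the branched-chain members 12 of 16 were higher in replicate 3. The highest and lowest saline libraries differed by a median of 1.45-fold and by over 1.5-fold in 18 of 42 members, 13 of them outside the branched-chain pathway. The saline ratios span 3 libraries and the APAP ratios 2, which widens the former by construction, so the groups cannot be compared by them. Over 10% of the exon bases or sequence words of 8 members are shared with another gene (Bcat2, Bckdha, Aldh6a1, Gstz1, Afmid, Sds, Tdh and Aldh4a1). Without these, 35 members were tested, 20 of them fell at the adjusted p, and the median log2 fold change was -1.18.

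The other enzymes and cofactors of the same pathways gave lower values too, as a list of 48 companion genes. Of the 45 tested, 15 fell and none rose by the quasi-likelihood test, where 3.53% of all genes tested fell and 3.70% rose. The median log2 fold change was -0.92, beside 0.03 over all genes tested. At an unadjusted P under 0.05 with a fold change of at least 1.5, 26 were lower and 1, the proline synthesis enzyme Aldh18a1, was higher. The shares of all genes tested at this threshold were 11.2% lower and 12.3% higher. Aldh18a1 rose at the adjusted p under the likelihood ratio test, DESeq2, total-count scaling, the absence of a count filter and hepatocyte scaling. The list's fall depended on libraries as that of the members did, with 1 lower without APAP replicate 1, 4 without APAP replicate 3 and 1 without saline WT2.

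The branched-chain dehydrogenase complex is switched off by the kinase Bckdk and on by the phosphatase Ppm1k. Bckdk was at 11.2, 11.6 and 10.1 CPM with saline and 10.7 and 11.6 CPM with APAP (log2 fold change 0.02 ± 0.22, adjusted p = 0.961), and no library stood apart. Ppm1k was at 69.9, 98.0 and 72.5 CPM with saline and 17.1 and 25.8 CPM with APAP and fell 3.74-fold (log2 fold change -1.90 ± 0.29, adjusted p = 0.0156). Mut, the methylmalonyl-CoA mutase that follows Mcee, was at 143, 176 and 155 CPM with saline and 73.4 and 83.2 CPM with APAP and fell (log2 fold change -1.01 ± 0.22, adjusted p = 0.0429). Abat, an aminotransferase of GABA and of a valine by-product, was at 385, 406 and 309 CPM with saline and 166 and 117 CPM with APAP and fell (log2 fold change -1.37 ± 0.28, adjusted p = 0.0358).

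Qdpr, which recycles a pterin cofactor, was at 402, 214 and 204 CPM with saline and 85.1 and 70.7 CPM with APAP and fell (log2 fold change -1.81 ± 0.38, adjusted p = 0.0379). The folate enzymes Aldh1l1 and Mthfd1, which handle the unit that Ftcd passes on, fell with log2 fold changes of -1.90 ± 0.28 and -1.58 ± 0.31 (adjusted p = 0.0147 and 0.0338). Among enzymes around glycine, the log2 fold change was -2.39 ± 0.37 for sarcosine dehydrogenase (Sardh), -1.67 ± 0.29 for dimethylglycine dehydrogenase (Dmgdh), -1.66 ± 0.26 for the glyoxylate aminotransferase Agxt and -1.92 ± 0.40 for Gcat, all of which fell. In lysine degradation Dhtkd1 and Pipox fell, at -1.66 ± 0.31 and -1.80 ± 0.28.

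Oat, the ornithine aminotransferase, had the largest difference among the enzymes examined, at 1077, 1180.1 and 978 CPM with saline and 21.5 and 73.6 CPM with APAP (log2 fold change -4.50 ± 0.60, adjusted p = 0.0105), or 22.7-fold lower. It is also one of the 9 pericentral markers. Gls2, the liver glutaminase and one of the 9 periportal markers, was at 475, 439 and 367 CPM with saline and 73.7 and 91.8 CPM with APAP and fell 5.16-fold (log2 fold change -2.37 ± 0.27, adjusted p = 0.00629).

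Of 11 regulators of these pathways (transcription factors, a coactivator and the glucagon receptor), 2 fell, beside 3.53% of all genes tested. By DESeq2, 3 of the 11 fell. Both calls of the reported fit were lost without either APAP replicate, without saline WT1 and without saline WT2, where 0 of the 11 passed, and with total-count scaling. Without saline WT3, and also with hepatocyte scaling, 1 of the 11 was lower. Klf15, a Krüppel-like factor known for its control of amino acid catabolism, was at 154, 236 and 300.1 CPM with saline and 36.1 and 79.2 CPM with APAP (log2 fold change -1.99 ± 0.45, adjusted p = 0.0451). Cebpa, a hepatocyte transcription factor, was at 287, 254 and 205 CPM with saline and 109 and 86.1 CPM with APAP (log2 fold change -1.35 ± 0.26, adjusted p = 0.0330). Hnf4a was at 871, 959.6 and 1424 CPM with saline and 415 and 706 CPM with APAP (log2 fold change -0.95 ± 0.37, adjusted p = 0.172). The glucocorticoid receptor Nr3c1 was at 111, 91.9 and 84.8 CPM with saline and 52.4 and 71.1 CPM with APAP (log2 fold change -0.63 ± 0.24, adjusted p = 0.165). In both, each APAP library lay below every saline library, as in 20.1% of all genes tested, and neither passed the adjusted p. The median log2 fold change of the 11 genes was -0.63.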

How the data were processed

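Total RNA was extracted from liver. The labels name oligo(dT) priming and an mRNA-Seq library kit, and the methods an Illumina NovaSeq platform. Alignment by the authors was with HISAT2, and the deposited values used here are unnormalized read counts of each gene in each library. Their processing notes name GRCm38 and mm10. The annotation, strand setting and program versions are not given in the sources used here. A further 5 columns of FPKM were not used.

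For 5 libraries, edgeR 4.0.16 (R 4.3.3) was run on the whole count table. After filterByExpr with its count minimum at 10 and its total at 15, 13734 genes remained. The quasi-likelihood test followed TMM normalization, had no covariates, and its p-values were adjusted by Benjamini and Hochberg's method over these genes. A design meant for 3 livers in each group was thus used with 2 APAP libraries. Fold changes are given with their standard error. The steps were tested on simulated data. The 43 members and all other lists (companion enzymes, regulators, markers of 9 cell types and sex-linked genes) were chosen with earlier results of these data known, so they are not independent of them. Every member is named. Of the other lists, the text names companions and regulators that passed the adjusted p (1 is not reported here), Bckdk, Ppm1k, Hnf4a, Cebpa, Nr3c1, the most abundant gene of each marker list (by the mean of all libraries), Xist and Ddx3y. Aldh18a1, Marco, Col1a1, Ly6g, Camp, Retnlg, Chil3, Clec4f, Clec4g, Cd79b, Apoa1, Fga, Arg1 and Cdh1 were singled out after their values were seen. Exon lengths, overlaps and shared words of 50 bases came from GENCODE M21 (GRCm38), in which 35 of the 43 members have identical coordinates. A count of 3 was taken as the floor of detection, for counting error only.

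The alternatives were the likelihood ratio test, DESeq2 1.42.0, 3 other scalings (RLE size factors, upper quartiles, total counts), 2 other count filters and each library left out in turn. Scaling to 8 hepatocyte markers was added after the data had been seen. Python 3.11.15 with matplotlib 3.10.9 was used for annotation and plots.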

Additional observations from a re-analysis of the deposited data

How the results depend on the processing

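The fitted direction of the members changed little and the number of calls changed much. Across 13 alternatives, between 39 and 41 of the 42 fitted values were negative. In 36 members every APAP library lay below every saline library. Leaving out a library or changing the test could hardly change their sign, so these counts are no test of the direction. The members lower at the adjusted p numbered 22 in the reported fit, from 4 to 25 with each library left out in turn, 28 by the likelihood ratio test, 33 by DESeq2 and 12 with hepatocyte scaling. The share of all genes called in either direction moved too. It was 7.23% in the reported fit, 13.4% by the likelihood ratio test, 15.2% by DESeq2 and 7.81% with hepatocyte scaling. The 22 reported calls were all among those of the likelihood ratio test and of DESeq2. A further 12 members were called in at least 1 alternative, among them Sdsl, which was called higher. The count of members higher at the adjusted p ranged from 0 to 1 with a library left out and was 1 only without saline WT3. At the study's threshold, the count of higher members ranged from 0 to 1 (0 without APAP replicate 1 and without saline WT2), and the count of lower members was 22 with hepatocyte scaling. Companion enzymes lower at the adjusted p numbered 24 by DESeq2 and from 1 to 17 with a library left out. Those higher numbered 1 by the likelihood ratio test, DESeq2, total counts, no count filter and hepatocyte scaling, Aldh18a1 in each. The members' median was -0.80 with total counts and -0.80 with hepatocyte scaling, whose own shift of all genes accounts for the difference by construction. Values changed sign for Tdo2, to 0.21 with total counts and 0.23 with hepatocyte scaling, and it ranged from -0.41 to 0.10 with a library left out (0.10 without saline WT3). With a library left out, Ftcd ranged from -0.0062 (without APAP replicate 1) to 0.53, and its highest value over all alternatives was 0.72. Where libraries were left out, fewer samples and fewer genes called overall went with the lower counts. Saline WT3 was the exception, with 25 members lower while 6.84% of all genes were called. No paired analysis was possible because the saline columns carry no replicate number that matches the labels. With 2 APAP libraries, 6 members had an adjusted p between 0.05 and 0.1.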
